A study of Homo sapiens with 9 samples.

Results

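The mitochondrial ribosomal protein genes are the nuclear genes whose symbols begin with MRPL or MRPS, followed by a number and at most 1 letter. The series table lists 77 such genes among 20379, 49 with an MRPL symbol and 28 with an MRPS symbol. All 77 were among the 12657 genes that passed the filter on low counts. MRPL42, the target of 1 of the siRNAs, is a member. RNA was sequenced from HCCLM3, an established human hepatocellular carcinoma line, in 3 groups of 3 libraries. The groups were cells transfected with siRNA against MRPL42, cells transfected with siRNA against UXS1, and cells that received a non-targeting control siRNA. All 9 libraries come from the same cell line and all cells were transfected, so the control carries the transfection too. The siRNA sequences, their dose and the time of harvest were not used here. UXS1 encodes UDP-glucuronate decarboxylase, an enzyme of UDP-xylose synthesis.

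The mitochondrial ribosome translates the few mRNAs of the mitochondrial genome, which encode core subunits of the respiratory chain and of ATP synthase. Its proteins are made in the cytosol from nuclear genes, imported, and assembled with mitochondrially encoded rRNA into a small subunit, which decodes the mRNA, and a large subunit, which forms the peptide bonds. Many of these proteins have a counterpart in bacterial ribosomes and others are specific to mitochondria. Symbol and place do not always match, since the products of MRPS30 and MRPS18A sit in the large subunit. By structure, 51 members belong to the large subunit, 30 with a bacterial counterpart and 21 specific to mitochondria. Another 26 belong to the small subunit, 16 with a bacterial counterpart and 10 specific to mitochondria. MRPL42 encodes mL42, a protein specific to mitochondria in the large subunit.

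The libraries held between 15265959 and 22400560 estimated counts. The labels do not tell whether each library is its own culture, and p-values here measure the spread between libraries, which can be technical. Control siRNA library c stood apart. Its log2 CPM (counts scaled to library size by TMM) gave Pearson's r of 0.961 to 0.972 across genes with the 8 other libraries, against 0.987 to 0.996 in the 28 pairs without it, and genes are not independent replicates. Levels were set between genes as CPM per kilobase of annotated transcript. On that scale the epithelial keratins KRT8 and KRT18 averaged 2759.7 and 955 in control siRNA cells, while EPCAM, another epithelial marker, averaged 0.2898. Of the hepatocyte markers, HNF4A and TF averaged 48.9 and 46.8, ALB 6.004 and APOA1 0.17, and GPC3, a marker of many hepatocellular carcinomas, was at 0 in every library. PECAM1 and DCN, markers of endothelium and fibroblasts, averaged 41.7 and 27.2, while COL1A1, COL1A2, VWF, CDH5, PTPRC, CD14 and CD3E stayed at or below 0.975 in every library. In bulk RNA, fewer cells of a type and less RNA per cell cannot be told apart.

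UXS1 mRNA gave no call for its own siRNA. It had 145, 138 and 141 CPM in the UXS1 siRNA libraries, against 144, 151 and 179.7 CPM in the control siRNA libraries, and the groups overlapped. The edgeR log2 fold change was -0.17 ± 0.087 (SE, n = 3 each), with an adjusted p of 0.348. The UXS1 siRNA libraries are therefore named by their label throughout.

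MRPL42 lies on chromosome 12, from base 93467488 to base 93516213 of the plus strand in GRCh38 (ENSG00000198015). Its promoter window in RefSeq, chr12:93467264-93467563 of GRCh38.p14, runs from 250 bases before to 50 bases after the start site, here on the plus strand. It is shown because MRPL42 is the targeted member, and because the capitals mark letters that recur in the family and are described below.
MRPL42: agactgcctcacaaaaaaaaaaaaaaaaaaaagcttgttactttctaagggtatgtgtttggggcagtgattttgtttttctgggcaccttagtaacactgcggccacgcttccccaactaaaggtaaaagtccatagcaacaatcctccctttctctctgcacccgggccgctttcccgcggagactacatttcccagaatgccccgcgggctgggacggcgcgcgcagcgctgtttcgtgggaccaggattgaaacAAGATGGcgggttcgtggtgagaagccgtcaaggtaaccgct

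MRPL42 mRNA was lower in MRPL42 siRNA cells than in the other groups on average. It had 104, 93.05 and 81.8 CPM in the MRPL42 siRNA libraries. The UXS1 siRNA libraries had 131, 115 and 126 CPM, and the control siRNA libraries had 100.4, 118 and 147 CPM. All MRPL42 siRNA libraries lay below all UXS1 siRNA libraries, while MRPL42 siRNA library a lay above control siRNA library a. The means were 93.1 ± 11.3, 124 ± 8.49 and 122 ± 23.4 CPM (SD, n = 3 each) in MRPL42 siRNA, UXS1 siRNA and control siRNA cells. MRPL42 siRNA cells thus held 76.6% of the control mean and 75.04% of the UXS1 siRNA mean.

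The difference did not pass the threshold of 0.05. The edgeR log2 fold change was -0.39 ± 0.14 (SE) in MRPL42 siRNA against control siRNA, and the quasi-likelihood test gave an adjusted p of 0.185. On CPM, a two-sided exact permutation test gave p = 0.2, where 0.1 is the smallest p that 3 against 3 libraries allow. Against UXS1 siRNA the log2 fold change was -0.41 ± 0.14, with an adjusted p of 0.9998 by edgeR and an exact permutation p of 0.1. UXS1 siRNA against control siRNA gave 0.028 ± 0.14, with an exact permutation p of 1. Over the alternatives tried, the log2 fold change in MRPL42 siRNA against control siRNA lay between -0.51 and -0.23, with adjusted p between 0.107 and 0.5. Control siRNA library c had the highest MRPL42 value. Without it the log2 fold change was -0.24, with an adjusted p of 0.252 (edgeR).

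Over all libraries the log2 fold change of MRPL42 was the lowest of the 77 members in MRPL42 siRNA against control siRNA and in MRPL42 siRNA against UXS1 siRNA. The place against control siRNA rested on control siRNA library c. Without it MRPS31 lay lower, at -0.26, beside -0.24 for MRPL42. Without both MRPL42 siRNA library b and control siRNA library c the values were -0.30 for MRPS31 and -0.24 for MRPL42. MRPL42 was number 9 from the lowest in UXS1 siRNA against control siRNA. By CPM per kilobase it was member number 16, 11 and 19 from the top in the MRPL42 siRNA libraries. It was number 6, 10 and 6 in the UXS1 siRNA libraries and number 9, 6 and 2 in the control siRNA libraries.

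MRPL42 was also set against its partners within each library. The log2 CPM of MRPL42 minus the mean log2 CPM of the other 76 members was 0.91, 1.13 and 0.69 in the MRPL42 siRNA libraries. This difference was 1.40, 1.16 and 1.42 in the UXS1 siRNA libraries and 1.30, 1.56 and 1.94 in the control siRNA libraries. Every MRPL42 siRNA library lay below every other library, though MRPL42 siRNA library b and UXS1 siRNA library b were close. The means were 0.91 ± 0.22 in MRPL42 siRNA, 1.33 ± 0.14 in UXS1 siRNA and 1.60 ± 0.32 in control siRNA cells (SD, n = 3 each). For the log2 CPM of MRPL42 alone they were 6.53 ± 0.18, 6.95 ± 0.10 and 6.91 ± 0.27. The distance to control siRNA was thus wider against the partners, while that to UXS1 siRNA was about the same. The partners also differed between groups. Their mean log2 CPM relative to each gene's mean over the libraries was 0.27, -0.11 and 0.15 in the MRPL42 siRNA libraries, 0.12, 0.16 and 0.043 in the UXS1 siRNA libraries and -0.17, -0.19 and -0.26 in the control siRNA libraries. All 6 siRNA libraries lay above all controls, with MRPL42 siRNA library b nearest to them. Against the 18 other members with under 45% GC, whose base composition is nearer to that of MRPL42, the difference was 1.25 ± 0.16 in MRPL42 siRNA cells, 1.61 ± 0.10 in UXS1 siRNA cells and 1.72 ± 0.25 in control siRNA cells.

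**Figure D1:**
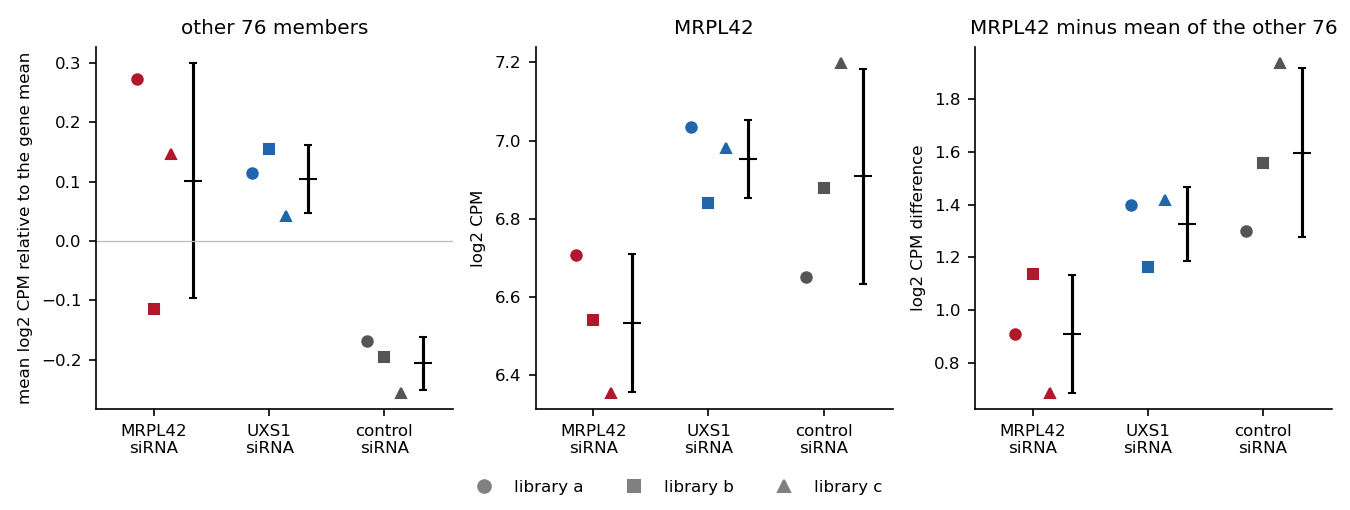
Mean log2 CPM of the other 76 mitochondrial ribosomal protein mRNAs relative to each gene's mean over the libraries (left), log2 CPM of MRPL42 (middle) and MRPL42 minus the mean of the others in log2 CPM (right), per library, with group mean and SD beside the points. In the right panel the MRPL42 siRNA libraries lie at 0.69 to 1.13, below all UXS1 siRNA and control siRNA libraries.

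The members most like MRPL42 over the libraries, by the root mean square difference of centred log2 CPM, were MRPL19 at 0.16, MRPS35 at 0.17, MRPS6 at 0.19 and MRPL30 at 0.21. The farthest were MRPL54 at 0.76, MRPL41 at 0.76, MRPL53 at 0.70 and MRPL52 at 0.66. GC content was 49.7%, 40.3%, 48.9% and 43.2% in the 4 nearest members, against 60.9%, 71.9%, 52.3% and 55.6% in the 4 farthest. MRPL42 had 36.5%, in a family that ran between 34.96% and 71.9%. MRPL19, which encodes bL19m, had 88.4, 86.1 and 78.4 CPM in MRPL42 siRNA cells, 98.6, 87.6 and 91.6 CPM in UXS1 siRNA cells, and 88.9, 93.6 and 99.7 CPM in control siRNA cells. Its MRPL42 siRNA libraries lay below all its control siRNA libraries, and its log2 fold change was -0.16 ± 0.076 with an adjusted p of 0.269 (edgeR). MRPL19 was picked for its likeness to MRPL42 over these same libraries, so its direction is not separate evidence.

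Levels differed more between members than between groups. In control siRNA cells the members spanned from 180.2 ± 16.2 CPM per kilobase (SD, n = 3) for MRPL49 to 4.84 ± 0.634 for MRPL57, a 37.3-fold range around a median of 38.4. MRPL49 encodes mL49, and MRPL24, which encodes uL24m, stood beside it at 179 ± 19.2, less than their spread apart. MRPL51 at 152 ± 20.9, MRPL3 at 148 ± 5.305 and MRPL42 itself at 132 ± 25.5 followed, and the neighbours among these 3 lay within their spread of each other. At the lower end MRPL50 had 11.9 ± 0.292, MRPS14 8.24 ± 0.253, MRPL22 6.06 ± 0.2801 and MRPS31 5.36 ± 0.644 CPM per kilobase. MRPL57 and MRPS31 lay within their spread of each other, while MRPS14 lay above MRPL22 by more than either SD. The medians were 32.9 for the large subunit and 41.8 for the small subunit. Within the large subunit, members with a bacterial counterpart had a median of 47.3 and those specific to mitochondria 26.6. These levels rest on the median annotated length of a gene's coding transcripts, which was 920 bases for MRPL42, 518 for MRPL49, 3332 for MRPL50 and 3098.5 for MRPL22. MRPL42 has 10 annotated transcripts, the longest of 15582 bases, so a different choice of transcript moves its place.

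In MRPL42 siRNA cells most members lay above control siRNA cells, but no single member passed the test. Of the 77, 67 had a log2 fold change above 0, against 47.9% of all genes tested. The median was 0.24 over the members and -0.011 over all genes tested. By edgeR's quasi-likelihood test 0 members were called in either direction, as were 0% of all genes. At an unadjusted p below 0.05 there were 40 members higher, against 11.4% of all genes, and 1 lower, against 8.83%. The 1 lower member was MRPL42 itself. DESeq2 called 27 members higher, against 4.14% of all genes, and 0 lower, against 1.22%. limma-voom called 0 in either direction, against 0%. In CPM the groups did not overlap for 33 members that were higher, against 11% of all genes, and for 2 that were lower, MRPL19 and MRPL44, against 10.5%.

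The large subunit had a median log2 fold change of 0.25 over 51 members, of which 46 were above 0. Its members specific to mitochondria, with a median of 0.24, held the 4 highest values. MRPL41, which encodes mL41, had 125, 45.004 and 93.7 CPM in MRPL42 siRNA cells, against 39.1, 35.5 and 35.96 CPM in control siRNA cells. All MRPL42 siRNA values were higher than all controls, and the log2 fold change was 1.26 ± 0.30 with an adjusted p of 0.135 (edgeR). MRPL54 had 26.2, 10.4 and 18.3 CPM in MRPL42 siRNA cells, against 8.98, 8.204 and 6.42 CPM in control siRNA cells. The groups did not overlap there either, and the log2 fold change was 1.22 ± 0.29 with an adjusted p of 0.135. MRPL53 had 63.2, 26.6 and 46.8 CPM in MRPL42 siRNA cells, against 21.9, 21.3 and 18.5 CPM in control siRNA cells, and gave 1.15 ± 0.26. In each of these genes library b was the lowest of the MRPL42 siRNA libraries. MRPL52 had 29.5, 11.7 and 22.5 CPM, against 12.02, 9.94 and 9.86 CPM in control siRNA cells, so that its library b lay among the controls, and gave 1.00 ± 0.28. MRPL57 followed at 0.78 ± 0.23, MRPL43 at 0.65 ± 0.14 and MRPL58 at 0.51 ± 0.13. MRPL58, also called ICT1, encodes a peptidyl-tRNA hydrolase that is built into the ribosome. MRPL37 gave 0.25 ± 0.067, MRPL51 0.26 ± 0.12, MRPL49 0.10 ± 0.072 and MRPL50 0.054 ± 0.071.

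Large subunit members with a bacterial counterpart had a median of 0.33. MRPL23, whose product lies by the exit of the peptide tunnel, had 105, 48.6 and 74.97 CPM in MRPL42 siRNA cells, against 44.6, 36.6 and 36.01 CPM in control siRNA cells. The groups did not overlap and the log2 fold change was 0.96 ± 0.24, with an adjusted p of 0.135 (edgeR). MRPL17 had 139.9, 81.3 and 104 CPM in MRPL42 siRNA cells, against 66.1, 68.9 and 70.7 CPM in control siRNA cells, and gave 0.66 ± 0.16. MRPL33 gave 0.62 ± 0.15, MRPL24 0.48 ± 0.13, MRPL22 0.42 ± 0.17 and MRPL32, whose product is processed by the m-AAA protease before assembly, 0.17 ± 0.10. Members of this class outside the named ones rose as well, such as MRPL55 at 0.87 ± 0.23 and MRPL12 at 0.64 ± 0.16. Of the 30 members in the class, 27 lay above 0 and 3 below. Some differed little. MRPL2, which encodes uL2m near the peptidyl transferase centre, gave 0.10 ± 0.10. MRPL3 gave -0.028 ± 0.058 with a 95% interval of -0.16 to 0.10, and MRPL30 gave -0.081 ± 0.062.

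Besides MRPL42, 1 large subunit member specific to mitochondria lay below 0. MRPL44, which encodes mL44, a protein with a fold of the ribonuclease III family, had 34.04, 35.6 and 35.95 CPM in MRPL42 siRNA cells, against 38.2, 36.9 and 43.2 CPM in control siRNA cells. The groups did not overlap, and its log2 fold change was -0.16 ± 0.080 with an adjusted p of 0.279 (edgeR). MRPS30 gave 0.017 ± 0.086 and MRPS18A 0.30 ± 0.14, both large subunit members by structure.

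The small subunit had a median of 0.24 over 26 members, of which 21 were above 0. The median was 0.25 for members with a bacterial counterpart and 0.14 for those specific to mitochondria. MRPS24, which encodes uS3m, had 134, 65.1 and 103 CPM in MRPL42 siRNA cells, against 60.2, 53.8 and 52.6 CPM in control siRNA cells. The groups did not overlap, and the log2 fold change was 0.86 ± 0.22 with an adjusted p of 0.135 (edgeR). MRPS12, whose product uS12m lies at the decoding centre, had 147, 84.96 and 117 CPM in MRPL42 siRNA cells, against 75.3, 69.8 and 62.9 CPM in control siRNA cells. Its groups did not overlap and its log2 fold change was 0.75 ± 0.17. MRPS11 gave 0.71 ± 0.18, MRPS14 0.41 ± 0.12, MRPS17 0.27 ± 0.068, MRPS33 0.26 ± 0.066 and MRPS28 0.24 ± 0.079. At the other end MRPS10, which encodes uS10m, had 76.2, 89.7 and 78.5 CPM in MRPL42 siRNA cells, against 80.7, 90.4 and 115 CPM in control siRNA cells. These overlapped, with a log2 fold change of -0.23 ± 0.13 and an adjusted p of 0.336. Without control siRNA library c MRPS10 gave -0.077 in MRPL42 siRNA and -0.088 in UXS1 siRNA against control siRNA. MRPS31 gave -0.16 ± 0.14, or -0.26 without that library, MRPS35 -0.067 ± 0.097 and MRPS6 -0.057 ± 0.10.

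**Figure D2:**
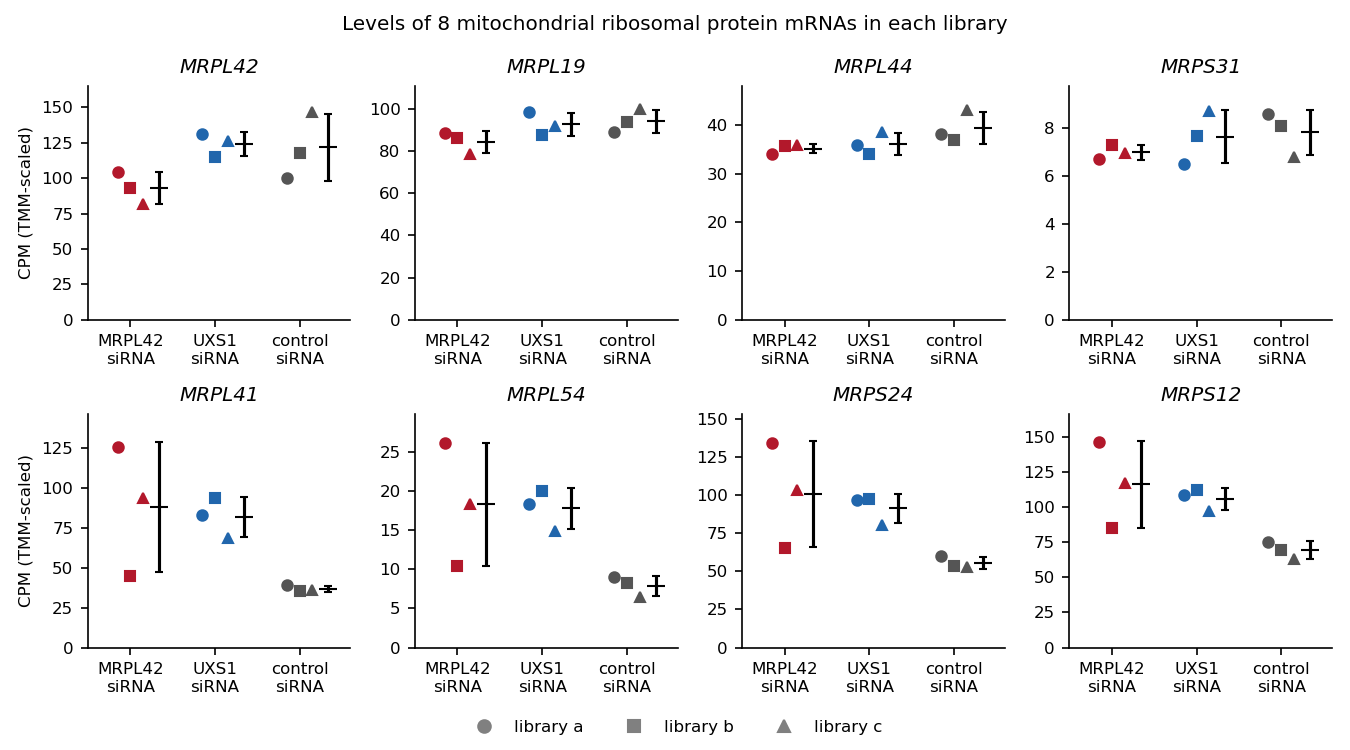
CPM (scaled by TMM) of 8 members in each library (points, letters by shape) with group mean and SD, on axes that start at 0. In MRPL42 the MRPL42 siRNA libraries have the lowest mean, while in MRPL41, MRPL54, MRPS24 and MRPS12 both siRNA groups lie above the controls and MRPL42 siRNA library b lies nearest to them.

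UXS1 siRNA cells were compared with the same control libraries, so both comparisons share them. Of the 77 members, 71 had a log2 fold change above 0, against 49% of all genes, and the median was 0.25, beside -0.0047 over all genes. edgeR called 0 members, against 0% of all genes in the higher direction and 0.0158% in the lower. At an unadjusted p below 0.05 it gave 41 higher, against 10.4% of all genes, and 0 lower, against 7.37%. DESeq2 called 14 members higher, against 2.47% of all genes, and 0 lower, against 1.11%. limma-voom called 0 in either direction, against 0% of all genes higher and 0.0158% lower. On the 6 libraries compared, edgeR called 14 higher, against 1.84%, and 0 lower, against 0.176%. The groups did not overlap for 48 members that were higher, against 15.3% of all genes, and for 0 that were lower, against 10.9%.

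Large subunit members specific to mitochondria again held the 3 highest values. MRPL54 had 18.4, 20.03 and 14.9 CPM in UXS1 siRNA cells, against 8.98, 8.204 and 6.42 CPM in control siRNA cells, without overlap, and gave 1.18 ± 0.29. MRPL41 had 83.2, 93.4 and 68.9 CPM in UXS1 siRNA cells, against 39.1, 35.5 and 35.96 CPM in control siRNA cells. Its groups did not overlap either, and its log2 fold change was 1.15 ± 0.30 with an adjusted p of 0.174 (edgeR). MRPL53 gave 1.01 ± 0.26, MRPL23 0.92 ± 0.24, MRPL52 0.87 ± 0.28 and MRPL57 0.74 ± 0.23. In the small subunit MRPS24 gave 0.72 ± 0.21, MRPS11 0.67 ± 0.18 and MRPS12 0.61 ± 0.17. The lowest values were -0.23 ± 0.13 in MRPS10, -0.12 ± 0.080 in MRPL44 and -0.035 ± 0.14 in MRPS31. The subunit medians were 0.25 for the large and 0.26 for the small subunit.

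MRPS18C was the only member called in this comparison when control siRNA library c was left out. It encodes bS18m, the MRPS18 form that fills the bacterial S18 position of the small subunit. It had 27.1, 23.9 and 26.2 CPM in MRPL42 siRNA cells, 32.3, 28.8 and 29.3 CPM in UXS1 siRNA cells and 21.2, 23.3 and 24.8 CPM in control siRNA cells. UXS1 siRNA lay above both other groups without overlap. The log2 fold change in UXS1 siRNA against control siRNA was 0.38 ± 0.088 over all libraries, with an adjusted p of 0.171. Without control siRNA library c it was 0.42 ± 0.087 with an adjusted p of 0.0409 (edgeR). That was 1 member of 77, against 0.502% of all genes. The other MRPS18 paralogs gave 0.14 ± 0.085 in MRPS18B, which encodes mS40 of the small subunit, and 0.25 ± 0.14 in MRPS18A, which encodes mL66 of the large subunit. Reads shared between the paralogs cannot be told from the table.

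**Figure D3:**
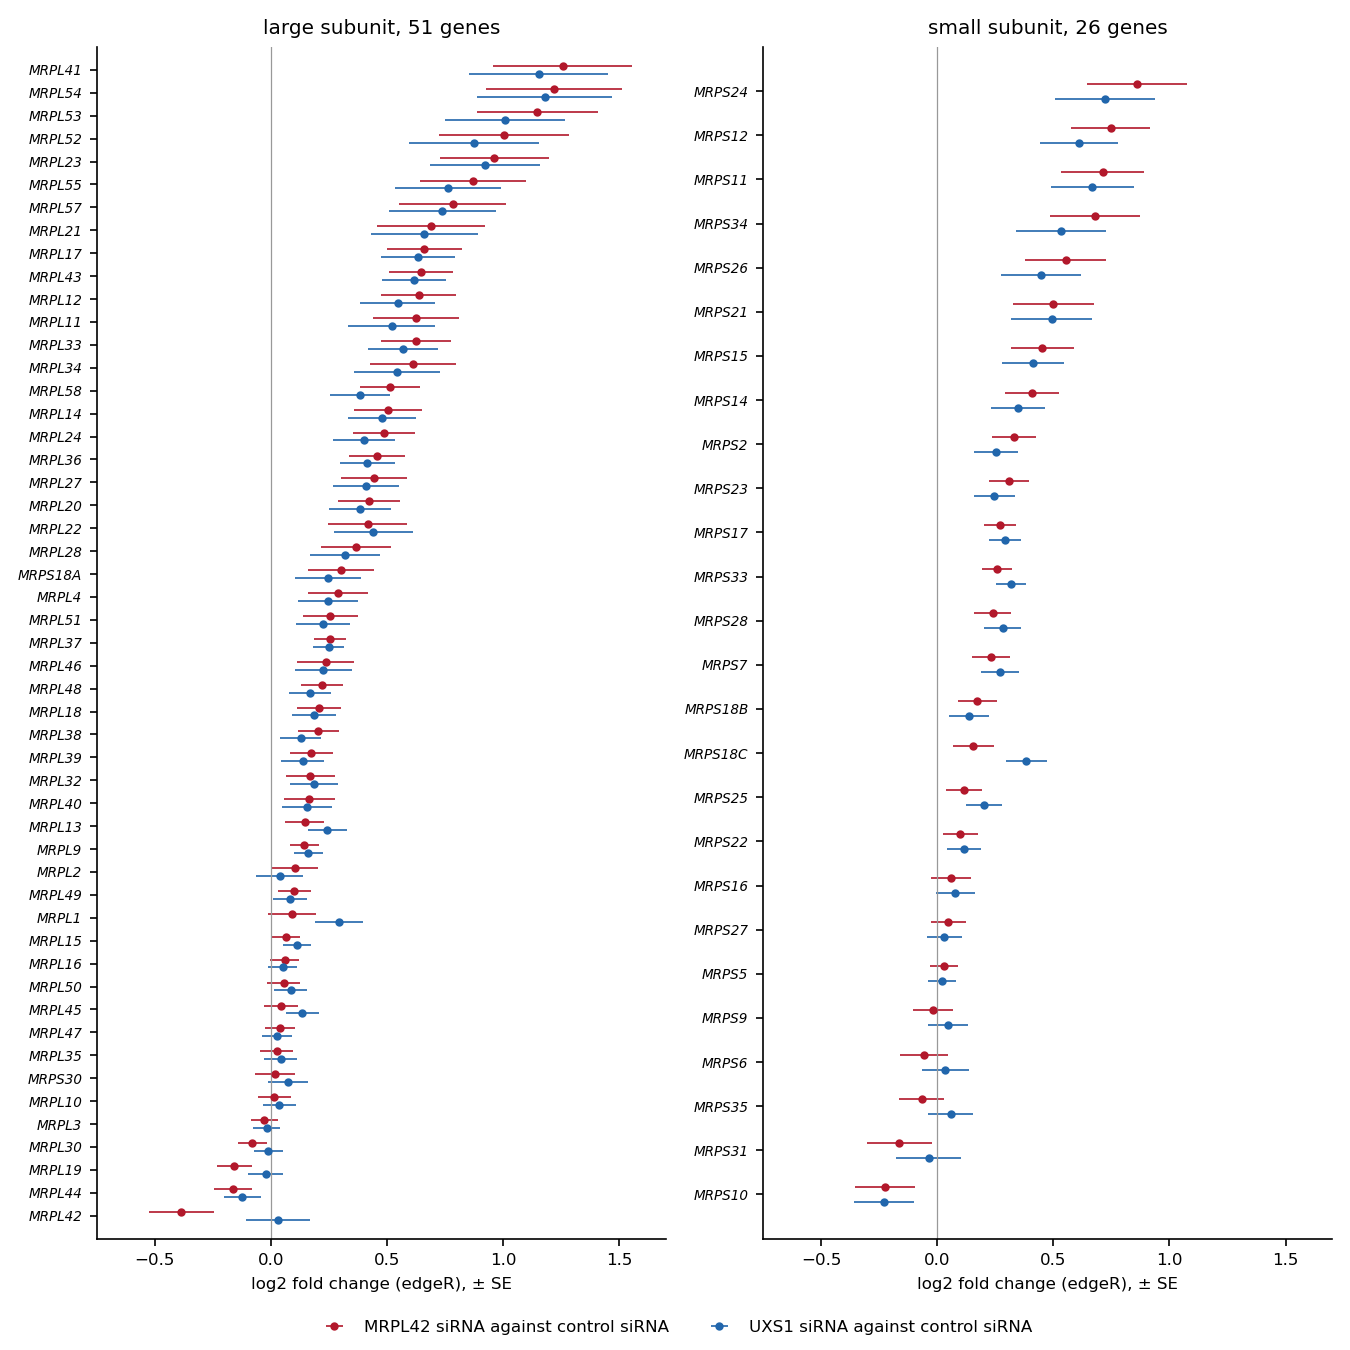
log2 fold change (edgeR) ± SE of each of the 77 members in MRPL42 siRNA against control siRNA and in UXS1 siRNA against control siRNA, for the large subunit (left) and small subunit (right), ordered by MRPL42 siRNA against control siRNA. Both comparisons use the same control libraries, and MRPL42 lies at -0.39 in MRPL42 siRNA and at 0.028 in UXS1 siRNA.

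MRPL42 siRNA against UXS1 siRNA does not use the control libraries in its contrast. The median over the members was 0.021. It ran from -0.075 without MRPL42 siRNA library a to 0.11 without library b, so its sign rests on single libraries. Over all libraries 49 of 77 were above 0, against 51.4% of all genes. edgeR, DESeq2 and limma-voom each called 0 members, as they did 0% of all genes. At an unadjusted p below 0.05 edgeR gave 0 higher, against 0.458% of all genes, and 2 lower, against 1.26%. These were MRPL42 at -0.41 ± 0.14 and MRPS18C at -0.23 ± 0.088. In CPM 3 members lay wholly lower, against 5.79% of all genes, namely MRPL42, MRPS18C and MRPS6, and 0 wholly higher, against 4.31%. The 95% intervals were wide where libraries spread most, from -0.55 to 0.76 for MRPL41. They were narrower for evenly measured members such as MRPL37, from -0.15 to 0.16.

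The log2 fold changes went with transcript length and base composition, in the family and outside it. The members had a median annotated length of 1032 bases, from 461 to 3332 bases. In MRPL42 siRNA against control siRNA, 35 members under 1000 bases had a median log2 fold change of 0.31, against 0.070 over 3038 other genes of that length. Between 1000 and 1500 bases the median was 0.24 over 24 members, against 0.069 over 1954 other genes. From 1500 bases upwards it was 0.048 over 18 members, against -0.056 over 7504 other genes. The members thus lay above other genes of their length in each class, and the longest members lay nearest to 0. UXS1 siRNA against control siRNA gave 0.32, 0.26 and 0.081 over the same members, against 0.065, 0.058 and -0.041 over the other genes. As a description across genes, Spearman's rho of change with length was -0.35 and -0.34 over the members in MRPL42 siRNA and in UXS1 siRNA against control siRNA, and -0.29 and -0.28 over 12496 other genes.

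Members with more GC had higher values. The 23 members with 55% GC or more had medians of 0.55 in MRPL42 siRNA and 0.48 in UXS1 siRNA against control siRNA, and all 23 were above 0 in both. The 4230 other genes of that class had 0.11 and 0.050. The 19 members under 45% GC had medians of 0.065 and 0.11, against -0.12 and -0.039 over 3979 other genes. Spearman's rho of change with GC was 0.56 and 0.47 over the members, and 0.39 and 0.17 over the other genes. In MRPL42 siRNA against UXS1 siRNA it was 0.63 over the members and 0.50 over the other genes. There 22 of the 23 members with 55% GC or more lay above 0, and 5 of the 19 under 45% GC. MRPL42 and MRPS18C both have under 45% GC. Over the alternatives tried, the log2 fold change of MRPL42 in that comparison lay between -0.50 and -0.29.

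With per-library offsets for annotated length, the members' median was 0.18 in MRPL42 siRNA against control siRNA and 0.17 in UXS1 siRNA against control siRNA. GC offsets left it at 0.23 and 0.24. In MRPL42 siRNA against control siRNA the GC offsets put MRPL41 at 1.01, MRPL54 at 1.09, MRPL33 at 0.72 and MRPL42 at -0.23, while length offsets put them at 1.18, 1.16, 0.57 and -0.49. What part length and base composition have in these differences was not tested beyond these offsets.

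**Figure D4:**
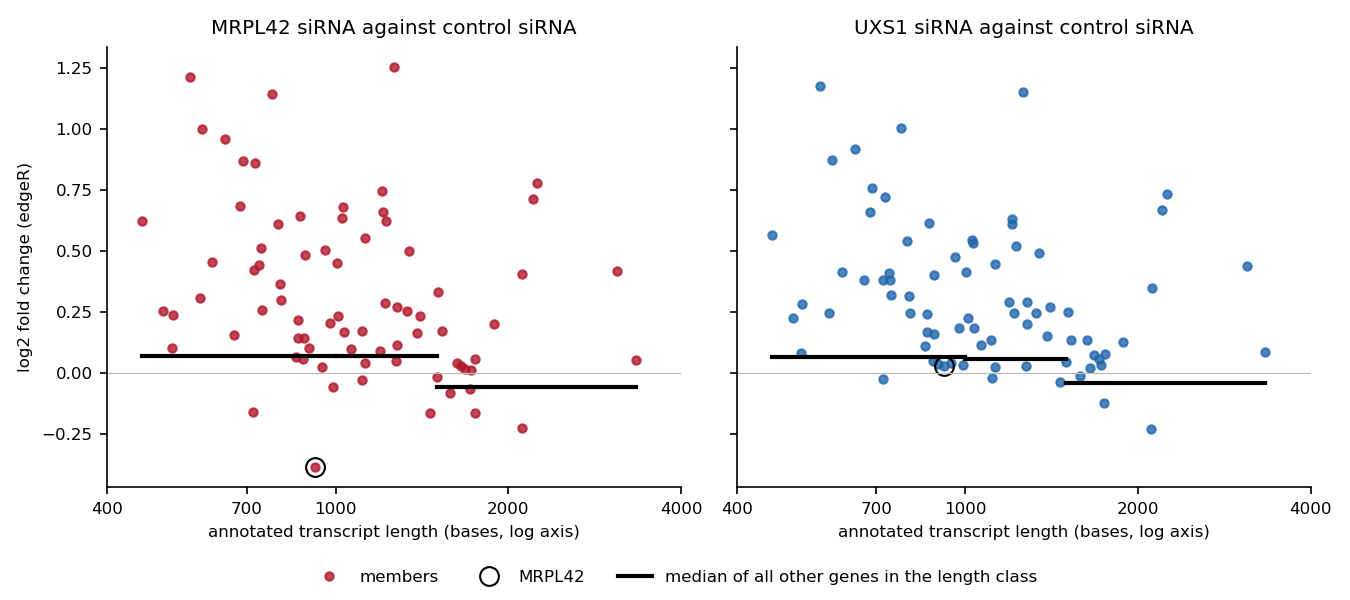
log2 fold change (edgeR) of each member against its annotated transcript length in bases (log axis), with MRPL42 ringed, for MRPL42 siRNA (left) and UXS1 siRNA (right) against control siRNA. Black bars are the medians of all other genes under 1000 bases, from 1000 to 1500 bases and above; most members lie above them, and MRPL42 lies far below its class on the left.

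The libraries of MRPL42 siRNA were uneven. Library b lay nearest to the controls in the members' mean, and other genes under 1000 bases did likewise, with 0.12, -0.052 and 0.067 in MRPL42 siRNA libraries, against -0.058, -0.079 and -0.12 in control siRNA libraries (mean log2 CPM relative to each gene's mean, in the order a, b, c). Without library b edgeR called 35 members higher in MRPL42 siRNA against control siRNA, against 5.85% of all genes, and 19 in UXS1 siRNA against control siRNA, against 2.48%. Without both MRPL42 siRNA library b and control siRNA library c it called 40 and 33, against 9.88% and 6.19%. MRPL42 was not called there, at -0.24 with an adjusted p of 0.167 in MRPL42 siRNA against control siRNA. The fit without both libraries was added after the values had been seen, and what sets library b apart was not tested. Without control siRNA library c alone edgeR called 0 members in MRPL42 siRNA against control siRNA, against 0.533% of all genes higher and 0.792% lower. At an unadjusted p below 0.05 that fit gave 38 higher, against 11.1% of all genes, and 1 lower, MRPL42, against 8.53%. The lower share in UXS1 siRNA against control siRNA was 1.07% of all genes and 0 members. Lower calls took 0 members without both libraries, against 4.69% and 3.27% of all genes in the comparisons with control siRNA and 0.00785% in MRPL42 siRNA against UXS1 siRNA.

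Promoter windows were matched for 69 of the 77 members, and the motifs below were chosen after the values had been seen. The letters AAGATGG, the core of a YY1 site, stood on either strand in 23 of them, or 33.3%, against 7.39% of 10116 other tested genes and 6.06% of all 27305 windows. CCGGAAG, the core of an ETS site, stood in 29, or 42.03%, against 19.5% and 10.7%. Of the other letters searched, 1 was more frequent and 2 were rarer in the members. GCATGCG, part of an NRF1 site, stood in 10.1%, against 6.47% of the other tested genes and 4.13% of all windows, CCAAT in 28.99%, against 36.8% and 35.7%, and TATAAA in 2.899%, against 5.79% and 11.95%. The YY1 and ETS letters stood together in 9 windows, either stood in 43, and no matches overlapped. A match is a description of letters and not of binding. Members with the YY1 letters had a median log2 fold change of 0.20 in MRPL42 siRNA against control siRNA and 0.18 in UXS1 siRNA against control siRNA, while those without had 0.30 and 0.31. The ETS letters went the other way, with 0.30 and 0.32, against 0.23 and 0.25 without. So did the NRF1 letters in 7 members, with 0.42 and 0.41, against 0.25 and 0.25. CCAAT gave 0.23 and 0.25, against 0.26 and 0.27. TATAAA, in 2 members, gave 0.83 and 0.80, against 0.25 and 0.25. These splits were not tested.

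In 16 of the 23 members the YY1 letters lay downstream of the start site on the gene's own strand, or 69.6%, against 47.99% of the other tested genes that hold them. CCGGAAG lay there in 0 of its 29, against 9.14% of the other tested genes that hold it. In 12 of the 16 the ATG inside AAGATGG is an annotated start codon of the same gene in GENCODE 29. RefSeq stretches (GRCh38.p14, each on its gene's strand) around these letters, in capitals, are shown because the letters that recur at these promoters also open the coding sequence. That of MRPL22 ends with its window.
MRPL22: gggagggcgaAAGATGGcggcggca
MRPL38: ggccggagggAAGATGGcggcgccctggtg
MRPL45: ttgcgggaacAAGATGGcagcccccatacc
MRPL46: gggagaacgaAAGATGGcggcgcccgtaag
MRPL50: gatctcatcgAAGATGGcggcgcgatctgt
MRPS10: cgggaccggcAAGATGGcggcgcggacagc
MRPS18A: taggtttttgAAGATGGcggccctcaaggc
MRPS18B: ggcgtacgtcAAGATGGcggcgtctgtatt
MRPS24: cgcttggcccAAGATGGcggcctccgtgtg
MRPS27: ggtacgctccAAGATGGctgcctccatagt
MRPS30: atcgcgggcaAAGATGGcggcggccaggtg
MRPS7: gtggccagccAAGATGGctgcccccgcagt
In the other 4, MRPL42 among them, the ATG is not an annotated start codon.
MRPL42: ggattgaaacAAGATGGcgggttcgtggtg
MRPL11: cctctggcccAAGATGGtggcgcccagagc
MRPL20: cgacccgggcAAGATGGcagcggcgctgcg
MRPL51: ggtaaggcccAAGATGGctgtcttcgcctt

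MRPL41 had the highest log2 fold change of the members in MRPL42 siRNA against control siRNA. Its RefSeq window, chr9:137551629-137551928 on the plus strand of GRCh38.p14, has 80.7% GC and neither the YY1 nor the ETS letters, and is shown beside that of MRPL42 for its base composition. No capitals are used in it.
MRPL41: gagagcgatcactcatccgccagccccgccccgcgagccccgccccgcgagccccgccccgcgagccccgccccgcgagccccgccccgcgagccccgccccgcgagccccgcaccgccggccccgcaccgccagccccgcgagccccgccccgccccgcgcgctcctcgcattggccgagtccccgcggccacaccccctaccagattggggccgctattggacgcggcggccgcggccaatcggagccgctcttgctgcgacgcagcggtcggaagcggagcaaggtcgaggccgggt

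Head-to-head neighbours, chosen after the values had been seen, start from nearby DNA. In GENCODE 29, 14 members start within 200 bases of an opposite gene, at 6 to 93 bases, and all partners were tested. MRPL46 and MRPS11, both members, start 34 bases apart and had log2 fold changes of 0.24 ± 0.12 and 0.71 ± 0.18 in MRPL42 siRNA against control siRNA. In UXS1 siRNA against control siRNA they had 0.22 ± 0.12 and 0.67 ± 0.18. The pair thus shared its direction and differed in size. MRPL57 gave 0.78 in MRPL42 siRNA against control siRNA, while its partner SKA3, a kinetochore gene, gave -0.061. MRPL52 gave 1.00 while SLC7A7, an amino acid transporter gene, gave 0.12. MRPL36 and NDUFS6, a subunit gene of complex I, gave 0.45 and 0.47. Signs also differed in MRPL21 with IGHMBP2 (0.69, -0.13), MRPS34 with EME2 (0.68, -0.18) and MRPL18 with TCP1 (0.21, -0.15). They differed too in MRPL32 with ENSG00000256646 (0.17, -0.082), MRPL30 with MITD1 (-0.081, 0.17) and MRPL10 with LRRC46 (0.013, -0.052). The sign was the same in MRPL27 with EME1 (0.44, 0.14), MRPS18C with HELQ (0.15, 0.0031) and MRPL47 with NDUFB5 (0.039, 0.071).

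Reads of neighbouring genes limit some of these values. A total of 38 members overlap another listed gene, 13 of them on the same strand. Of the members described above, MRPS24, MRPL53, MRPL33, MRPS17, MRPS28, MRPS6, MRPL30 and MRPL46 are among these 13. MRPS24 overlaps URGCP-MRPS24, MRPL53 CCDC142, MRPL33 BABAM2, MRPS17 NIPSNAP2 and MRPS6 SLC5A3. Strand cannot part the reads of these pairs. The sources used here do not say whether the counting used strand. The limit can therefore also hold for members that overlap a gene on the opposite strand. Of the members described above, these include MRPL19, MRPL37, MRPL43, MRPL49, MRPL51, MRPS11, MRPS12, MRPS14 and MRPS18C.

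Mitochondrial ribosome proteins under other names gave no call. DAP3, PTCD3, CHCHD1, AURKAIP1 and GADD45GIP1 are subunits without an MRP symbol, and 0 of 5 passed the edgeR test in either comparison with control siRNA. That test called 0% of all genes in MRPL42 siRNA, and 0% higher and 0.0158% lower in UXS1 siRNA, so 0 calls do not set these 5 apart. At an unadjusted p below 0.05, 3 were higher in MRPL42 siRNA, against 11.4% of all genes, and 3 in UXS1 siRNA, against 10.4%, with 0 lower in either. GADD45GIP1, of the large subunit, averaged 60.3 ± 20.6 CPM in MRPL42 siRNA cells, 54.04 ± 10.8 CPM in UXS1 siRNA cells and 34.3 ± 2.04 CPM in control siRNA cells (SD, n = 3 each). Its log2 fold changes were 0.81 ± 0.24 and 0.66 ± 0.24 for MRPL42 siRNA and UXS1 siRNA against control siRNA. CHCHD1 gave 0.52 ± 0.15 and 0.44 ± 0.15, and AURKAIP1 0.69 ± 0.22 and 0.52 ± 0.22. DAP3 gave 0.081 ± 0.051 and 0.090 ± 0.051, and PTCD3 -0.14 ± 0.069 and -0.091 ± 0.069. The list's median was 0.52 in MRPL42 siRNA and 0.44 in UXS1 siRNA against control siRNA, or 0.46 and 0.39 without control siRNA library c.

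The factors that build and run the ribosome had lower medians. Of the 29 assembly factors, all but GTPBP6 were listed and tested, and 0 of 28 passed. The shares of all genes called, given above, were also at or near 0%, here and for the 2 lists that follow. The assembly factors had medians of 0.13 and 0.076. Without control siRNA library c the medians were 0.099 and 0.058. RBFA, a binding factor of the small subunit, gave 0.33 ± 0.075 and 0.28 ± 0.075. MPV17L2 gave 0.38 ± 0.12 and 0.40 ± 0.12, and MTERF4, a partner of the methyltransferase NSUN4, 0.22 ± 0.068 and 0.18 ± 0.068. Below 0 at nearly the same p as MTERF4 in MRPL42 siRNA against control siRNA, and chosen after the values had been seen, lay the methyltransferase METTL15 with -0.27 ± 0.084 and -0.24 ± 0.084 and the GTPase GTPBP10 with -0.26 ± 0.084 and -0.047 ± 0.084. Of 18 translation factors 0 passed, with medians of 0.069 and 0.065. Without control siRNA library c these medians were -0.0032 and 0.0020. SLIRP, which binds mitochondrial mRNA with LRPPRC, gave 0.67 ± 0.20 and 0.58 ± 0.20. TACO1, the activator of MT-CO1 translation, gave 0.35 ± 0.087 and 0.35 ± 0.087, and OXA1L, the insertase of the inner membrane, 0.22 ± 0.064 and 0.18 ± 0.064.

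For the mitochondrially encoded mRNAs, which this ribosome translates, 0 of 13 passed and the medians were 0.030 and -0.034. Without control siRNA library c the medians were 0.077 and 0.058, so the sign in UXS1 siRNA against control siRNA rests on that library. MT-CO3 averaged 5933 ± 99.2 CPM in MRPL42 siRNA cells, 5823 ± 215 CPM in UXS1 siRNA cells and 5319 ± 224 CPM in control siRNA cells (SD, n = 3 each), with log2 fold changes of 0.16 ± 0.061 and 0.13 ± 0.060. MT-CO1 gave -0.12 ± 0.11 and -0.096 ± 0.11, and MT-ND3 0.22 ± 0.11 and 0.12 ± 0.11. Without control siRNA library c MT-CO1 changed sign, to 0.025 and 0.040, while MT-ND3 gave 0.20 and 0.086. At an unadjusted p below 0.05 edgeR gave 8 assembly factors, 4 translation factors and 1 mitochondrial mRNA higher in MRPL42 siRNA against control siRNA, beside 11.4% of all genes. It gave 2 assembly factors (METTL15 and GTPBP10), 1 translation factor (MTIF2, at -0.22 ± 0.089) and 0 mitochondrial mRNAs lower, beside 8.83%. In UXS1 siRNA against control siRNA the counts were 6, 4 and 0 higher, beside 10.4%, and 1 (METTL15), 0 and 0 lower, beside 7.37%. Protein and translation were not measured.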

How the data were processed

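Poly(A) RNA of 9 HCCLM3 libraries was sequenced. The authors deposited estimated counts per gene, not divided by depth or length, in 1 table per the file headers; 9 further columns, which hold TPM, were not used. The submitters' processing notes name fastp, Bowtie2, HISAT2, edgeR and hg38, without versions or roles. Columns were matched to groups by name, where UXS1 is spelt with a letter pair swapped. The letters a, b and c carry no repeat number. Estimated counts were rounded to whole numbers, where raw counts had been planned for.

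Tests used edgeR 4.0.16 (filterByExpr, TMM, quasi-likelihood, two-sided, 1 mean per group over all 9 libraries) in R 4.3.3, with Benjamini-Hochberg adjustment over the 12657 genes tested and a threshold of 0.05. DESeq2 1.42.0 and limma 3.58.1 (voom) were alternatives, and the edgeR step was tested on simulated data. For MRPL42 siRNA against control siRNA, that step recovered 53.2% of simulated 1.5-fold changes and 72.9% of 2-fold changes. Smaller changes were not simulated, so 0 calls do not show that small differences are absent. Other alternatives were another scaling, no filter, the 6 libraries compared, leaving out each library, and offsets for length or GC from lowess curves with a span of 0.3. Levels between genes, planned in TPM, are CPM per kilobase of the median length of a gene's coding transcripts in GENCODE 29. Levels between libraries are CPM. Depth was 15265959 to 22400560 estimated counts, and sequenced reads need not be separate molecules. Coordinates are from GENCODE 29, promoter windows from RefSeq.

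The named members are MRPL42, those with the smallest p and the highest and lowest changes per comparison, with and without control siRNA library c, the highest and lowest by level, the nearest to and farthest from MRPL42, and the MRPS18 forms and MRPS30. Pathway lists show the 3 smallest p in MRPL42 siRNA against control siRNA, and others where the text says so. Members and lists were chosen with earlier results of these data known.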

Additional observations from a re-analysis of the deposited data

How the results depend on the processing

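No paired analysis was possible because the deposited columns carry letters, which no label links to a repeat number. Of the values that answer a comparison, 149 kept their direction and their side of the threshold under the alternatives, 11 moved and 3 changed sign. Of those of single named members, 1178 kept both, 115 passed the threshold and 39 changed sign. DESeq2's size factors, no filter on low counts and limma-voom left the counts of members called at 0. In MRPL42 siRNA against control siRNA, DESeq2's Wald test called 27 members, leaving out 1 library gave 0 to 35, and leaving out MRPL42 siRNA library b and control siRNA library c gave 40. In UXS1 siRNA against control siRNA, DESeq2's Wald test called 14, the 6 libraries compared 14, leaving out 1 library 0 to 19 and leaving out both libraries 33. In that comparison, annotated length offsets without control siRNA library c called 1, MRPS18C. The share of all genes called by that fit was not taken, so this count has nothing to be set against. The members' median there was 0.17 with annotated length offsets and 0.16 with these and without control siRNA library c. MRPL42 there was -0.075 with annotated length offsets and ran -0.092 to 0.17 when 1 library was left out. The cause of these shifts was not tested.

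In MRPL42 siRNA against control siRNA, sign changes without a call were as follows. Annotated length offsets gave -0.0065 in MRPS30. GC offsets gave 0.055 in MRPL3 and 0.047 in MRPS35. Annotated length offsets without control siRNA library c gave -0.037 in MRPL2 and 0.026 in MRPS35. Leaving out MRPL42 siRNA library b and control siRNA library c gave 0.094 in MRPS6. With 1 library left out the values ran -0.0065 to 0.088 in MRPL50, -0.058 to 0.096 in MRPS30, -0.064 to 0.0038 in MRPL3, -0.13 to 0.030 in MRPS35 and -0.13 to 0.064 in MRPS6. In UXS1 siRNA against control siRNA, sign changes without a call were as follows. Annotated length offsets gave -0.062 in MRPL2, -0.0038 in MRPL49 and -0.066 in MRPS6. GC offsets gave -0.029 in MRPL2, 0.013 in MRPL3 and 0.017 in MRPL30. Annotated length offsets without control siRNA library c gave -0.10 in MRPL2 and -0.033 in MRPL49. Leaving out MRPL42 siRNA library b and control siRNA library c gave 0.0069 in MRPL19, -0.043 in MRPL2, 0.00077 in MRPL30 and -0.00090 in MRPL49. With 1 library left out the values ran -0.044 to 0.11 in MRPL2, -0.052 to 0.016 in MRPL30, -0.14 to 0.066 in MRPS31, -0.070 to 0.0071 in MRPL19, -0.061 to 6.5e-05 in MRPL3, -0.0026 to 0.14 in MRPS30, -0.0090 to 0.15 in MRPS35, -0.039 to 0.15 in MRPS6 and -0.00100 to 0.14 in MRPL49. All 77 members passed the filter on low counts.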
